A study of Arabidopsis thaliana with 12 samples.

Results

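The genes described here are close neighbours on the chromosome that changed to the same side in swi3b +/- seedlings of Arabidopsis thaliana. They were chosen from the authors' deposited table for swi3b +/- against Col-0, which lists features with a q-value below 0.05. A gene was eligible with at least 1 RPKM in Col-0 and a locus of 300 to 6000 bp. It became a member if another eligible gene started within 10 kb on the same chromosome and had its swi3b +/- to Col-0 ratio on the same side of 1. The rule leaves out AT5G24770, AT5G24780 and AT4G30280. This gave 71 members among 567 eligible genes, 617 listed genes and 629 listed features. Direction and level in this table chose the members, so their changes there are a description.

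RNA was sequenced from 12 samples of seedlings, 3 replicates for each of 4 genotypes per the labels. The mutants are swi3b +/-, nrpe1 and idn2-1, and Col-0 is the wild type. All plants were 2 to 3 weeks old and were grown in long days, and the labels name no treatment. SWI3B is a core subunit of SWI/SNF complexes, which use ATP to move or evict nucleosomes. The swi3b plants were heterozygous, so they still carried a wild-type copy. NRPE1, the catalytic subunit of plant-specific polymerase V, and IDN2, which binds double-stranded RNA, both act in DNA methylation guided by small RNAs. The labels give no allele for nrpe1.

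Neighbouring plant genes can share a response for several known reasons. Tandem duplication leaves copies side by side with related promoters, nearby genes can lie in the same stretch of open or closed chromatin, and divergent genes can share a promoter. Disease resistance genes and enzymes of specialised metabolism are well known for such clusters in Arabidopsis.

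Each genotype has 1 pooled value per gene in a table, in RPKM (reads divided by transcript length and by the total of the library), so no spread between replicates can be given and the depth is unknown. The comparisons share their Col-0 samples. Col-0 values were the same in the swi3b +/- and nrpe1 tables for all 25 members listed in both. In the idn2-1 table they were 0.854 times those of the swi3b +/- table at the median of 21 members, with a range of 0.623 to 1.31, so folds are read within a table. In seedlings, fewer cells of a type and less RNA per cell cannot be told apart. Of 9 green tissue markers, 1 (RBCS1B) was listed in any table, so the tissue could not be checked by their levels.

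The members formed 33 runs: 30 of 2 genes, 2 of 3 genes and 1 of 5 genes. Of the 71 members, 63 were higher and 8 lower in swi3b +/- than in Col-0. Over the 25877 features tested, a number recovered from the p-values and q-values, 2.43% were listed, 1.87% as higher and 0.556% as lower. The choice of members fixed this split, and nothing is read from it. Rises ranged from 1.57-fold to 4.80-fold with a median of 2.15-fold, against a median of 2.17-fold over all 444 eligible higher genes. The median log2 change of the lower members was -0.85, against -0.91 over the 123 eligible lower genes. Members ranged from 2.89 to 284 RPKM in swi3b +/- and from 1.397 to 165 RPKM in Col-0. Of the 71 genes, 69 are annotated as protein-coding and 1 as a long non-coding RNA, and AT3G62422 has no entry in the reference annotation.

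**Figure D1:**
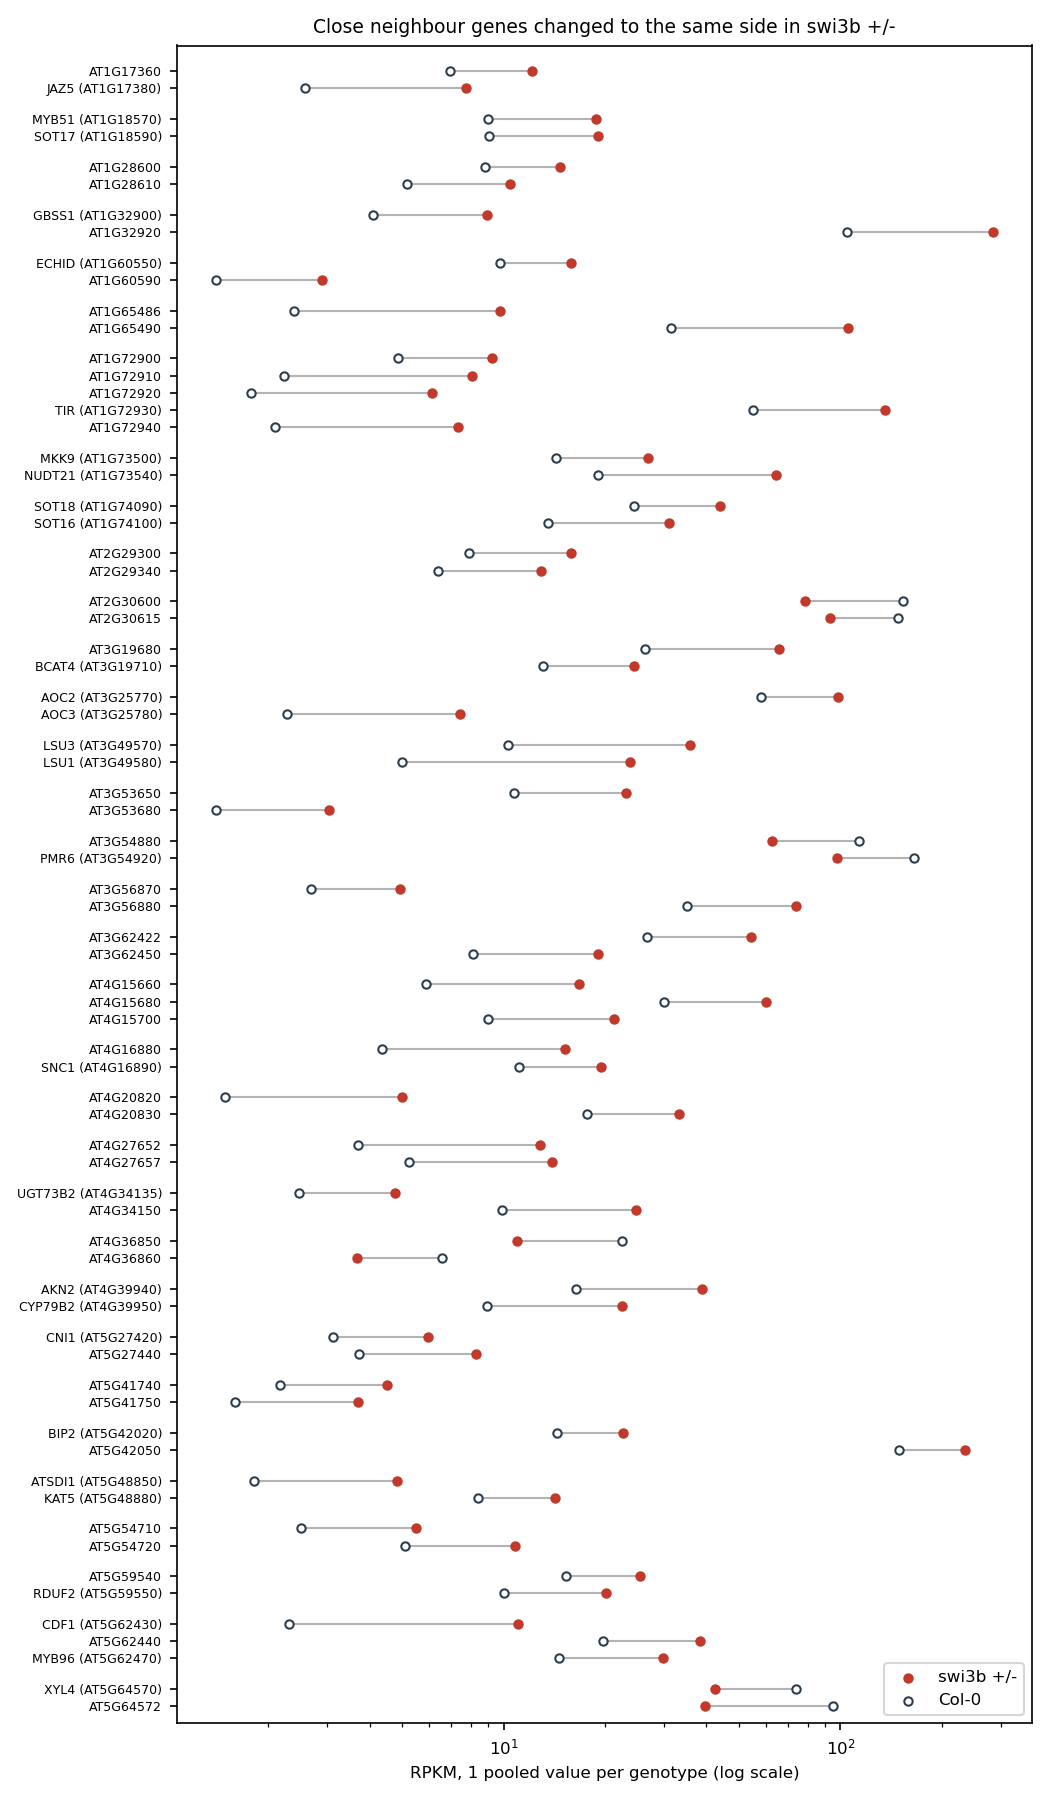
Level of each of the 71 members in RPKM (log axis), with 1 pooled value per genotype: filled points are swi3b +/- and open points Col-0, and gaps separate the 33 runs. The filled point lies to the right of the open point for 63 members and to the left for 8.

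Genes of glucosinolate synthesis were spread over 4 runs, and all rose. Glucosinolates are sulphur-rich defence compounds of the cabbage family, made from methionine or tryptophan and finished by sulphation. The sulphotransferase genes SOT18 (AT1G74090, chromosome 1, 27862909 to 27864193) and SOT16 (AT1G74100, 27864345 to 27865694), which encode enzymes of the final sulphation, face each other with 151 bp between their loci. SOT18 had 43.9 RPKM in swi3b +/- and 24.5 RPKM in Col-0, a 1.80-fold rise (q = 0.00361 in the authors' deposited table). SOT16 had 31.0 RPKM in swi3b +/- and 13.5 RPKM in Col-0, a 2.30-fold rise (q = 8.07e-06 in the authors' deposited table). The third such gene, SOT17 (AT1G18590), starts 9169 bp from MYB51 (AT1G18570), which encodes an activator of tryptophan-derived glucosinolate synthesis. MYB51 had 18.8 RPKM in swi3b +/- and 8.96 RPKM in Col-0 (2.09-fold), and SOT17 19.0 RPKM in swi3b +/- and 9.07 RPKM in Col-0 (2.10-fold).

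AKN2 (AT4G39940), an APS kinase that makes the sulphate donor for such sulphotransferases, lies beside CYP79B2 (AT4G39950), which converts tryptophan to its oxime. No annotated coding gene lies between them. AKN2 had 38.8 RPKM in swi3b +/- and 16.4 RPKM in Col-0 (2.36-fold, q = 4.1e-07 in the authors' deposited table). CYP79B2 had 22.5 RPKM in swi3b +/- and 8.93 RPKM in Col-0 (2.51-fold, q = 1.22e-07 in the authors' deposited table). Their proteins share 1.4% of the residues of the shorter one in a local alignment, so this is a pair with related roles and unrelated sequences. BCAT4 (AT3G19710), which starts the lengthening of methionine side chains, rose 1.86-fold per the authors' deposited table. Its neighbour AT3G19680, of unknown function and with 2 annotated coding genes between them, had 65.8 RPKM in swi3b +/- and 26.3 RPKM in Col-0 (2.50-fold).

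Of 30 genes of glucosinolate synthesis and its control, 18 were higher in swi3b +/-, 3 in nrpe1 and 1 in idn2-1, with none lower in any table. Over all features tested, 1.87% were higher in swi3b +/-, 1.04% in nrpe1 and 1.24% in idn2-1. The list was written after the members had been seen and holds 7 of them, which favours swi3b +/-, and the difference between the mutants was not tested. CYP79F2 (AT1G16400) and CYP79F1 (AT1G16410), adjacent genes for the methionine-specific first oxidation, rose 4.63-fold and 3.47-fold per the authors' deposited table for swi3b +/-. They are no members because CYP79F2 had 0.281 RPKM in Col-0.

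Low-sulphur response genes rose in 2 runs. LSU3 (AT3G49570, chromosome 3, 18372533 to 18373024) and LSU1 (AT3G49580, 18375269 to 18375784) encode small proteins induced by sulphur shortage. LSU1 had 23.7 RPKM in swi3b +/- and 4.98 RPKM in Col-0, and LSU3 had 35.9 RPKM in swi3b +/- and 10.3 RPKM in Col-0. These are rises of 4.77-fold and 3.49-fold (q = 3.17e-07 and 3.77e-07 in the authors' deposited table). The sulphur deficiency gene SDI1 (ATSDI1, AT5G48850) rose 2.66-fold per the authors' deposited table, to 4.84 RPKM in swi3b +/- against 1.82 RPKM in Col-0. Its neighbour KAT5 (AT5G48880), a peroxisomal thiolase gene, rose 1.70-fold. Of 12 genes of the low-sulphur response, 8 were higher in swi3b +/-, 8 in nrpe1 and 3 in idn2-1, with none lower. This list was also written after the members had been seen and holds 3 of them, which favours swi3b +/-. Over all features tested, 1.87% were higher in swi3b +/-, 1.04% in nrpe1 and 1.24% in idn2-1.

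**Figure D2:**
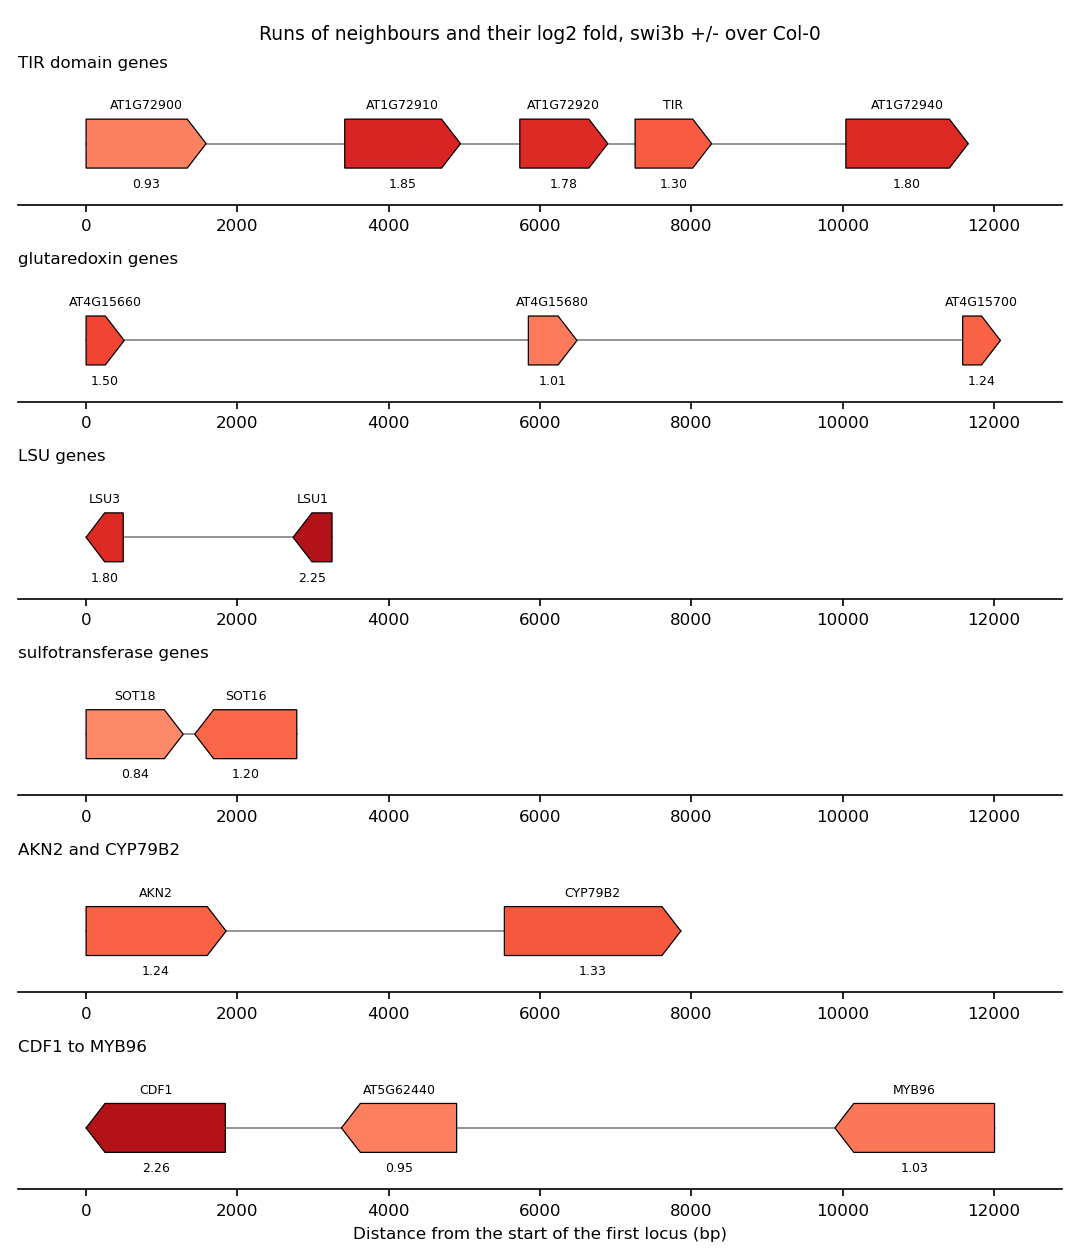
Loci of 6 runs drawn to scale as arrows in the direction of transcription, against the distance in bp from the start of the first locus. The number under each arrow is its log2 fold, swi3b +/- over Col-0, and darker red is a larger rise; all genes drawn rose, by 0.84 (SOT18) to 2.26 (CDF1).

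The run with the most genes held 5 for proteins with a TIR domain, an enzymatic module of plant immune receptors, on chromosome 1 (27432195 to 27443856). All 5 lie on the same strand. TIR (AT1G72930, 27439452 to 27440464) had the highest level per length, with 135 RPKM in swi3b +/- and 54.9 RPKM in Col-0 (2.46-fold, q = 1.67e-08 in the authors' deposited table). AT1G72910 had 8.07 RPKM in swi3b +/- and 2.23 RPKM in Col-0 (3.61-fold), and AT1G72920 had 6.12 RPKM in swi3b +/- and 1.78 RPKM in Col-0 (3.44-fold). AT1G72940 had 7.31 RPKM in swi3b +/- and 2.09 RPKM in Col-0 (3.49-fold), and AT1G72900 had 9.25 RPKM in swi3b +/- and 4.87 RPKM in Col-0 (1.90-fold). The 3 genes with the largest folds had the lowest Col-0 levels of the run. AT1G72910 and TIR share 95.5% of the residues of the shorter protein, and their transcripts share an identical stretch of 155 bases, so reads may be split between them and their separate values are uncertain. The same holds for AT1G72920 and AT1G72940, whose transcripts share an identical stretch of 103 bases.

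The promoter windows of 3 of these genes hold a GCC box, GCCGCC, the element bound by ethylene response factors, here on the reverse strand. The windows ran from 250 bases before to 50 after the annotated start, on both strands, and were read from TAIR10.1. They are shown because the letters around the box are similar, though not the same, in the 3 genes; capitals mark it. The AT1G72900 stretch is chr1:27432016-27432075, that of AT1G72920 chr1:27437707-27437728 and that of TIR chr1:27439275-27439296, all on the plus strand.
AT1G72900: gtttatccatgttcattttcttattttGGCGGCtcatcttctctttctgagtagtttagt
AT1G72920: cttactttGGCGGCccatcttt
TIR: cttattttGGCGGCccatctat
A GCC box was found in 4 of 69 member promoters (5.80%), in 2.27% of the 485 promoters of other eligible genes and in 2.57% of 27443 coding-gene promoters. The fourth was MKK9, and the box in TIR lies after the annotated start. The box of AT1G72920, 184 bases before its annotated start, lies in an annotated exon, as does that of TIR.

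Larger immune receptor genes rose in 2 further pairs. SNC1 (AT4G16890, chromosome 4, 9500506 to 9505455) encodes a receptor with TIR, nucleotide-binding and leucine-rich repeat parts whose overactivity is known to trigger defence. SNC1 had 19.5 RPKM in swi3b +/- and 11.1 RPKM in Col-0 (1.76-fold, q = 0.0027 in the authors' deposited table). Its neighbour AT4G16880 is a leucine-rich repeat gene for a protein of 153 residues, against 1437 for SNC1. AT4G16880 had 15.2 RPKM in swi3b +/- and 4.36 RPKM in Col-0 (3.49-fold, q = 1.25e-07 in the authors' deposited table). AT5G41740 and AT5G41750, receptor genes of the same class as SNC1, rose 2.08-fold and 2.32-fold per the authors' deposited table. Their transcripts share 189 identical bases, the longest stretch among the similar pairs.

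SNC1 and AT4G16880 both hold an evening element, AAAATATCT, a motif bound by clock proteins, within letters that largely match. The stretches are chr4:9497407-9497469 for AT4G16880 and chr4:9506084-9506146 for SNC1, both on the minus strand of TAIR10.1, with the element in capitals.
AT4G16880: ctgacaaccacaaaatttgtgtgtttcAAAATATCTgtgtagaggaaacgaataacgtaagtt
SNC1: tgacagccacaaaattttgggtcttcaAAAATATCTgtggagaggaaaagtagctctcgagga
The element was found in 8 of 69 member promoters (11.6%), in 4.12% of those of other eligible genes and in 2.82% of all coding-gene promoters. This was the only pair with it in both windows. AT4G16880 holds another copy, not shown, that begins 2 bases before its annotated start and overlaps an annotated exon.

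Small genes of other kinds also rose beside similar copies. AT1G65486 and AT1G65490 encode uncharacterised small proteins, with no coding gene between them, that share 74.2% of the residues of the shorter one. AT1G65490 had 105 RPKM in swi3b +/- and 31.4 RPKM in Col-0 (3.34-fold), and AT1G65486 had 9.75 RPKM in swi3b +/- and 2.38 RPKM in Col-0 (4.09-fold). Both hold the stress element CGCGTT, which is bound by calmodulin-binding transcription activators, at or close to the annotated start (chr1:24349390-24349411 and chr1:24354646-24354667, plus strand, TAIR10.1, capitals).
AT1G65486: gtagaaacCGCGTTcactagtg
AT1G65490: gtagaaacCGCGTTcacttgtc
In both genes the element overlaps an annotated exon, and in AT1G65490 it begins 8 bases after the annotated start. This element was found in 7 of 69 member promoters (10.14%), in 8.66% of those of other eligible genes and in 3.40% of all coding-gene promoters. The other motifs searched on both strands were the G-box CACGTG, the W-box TTGACC or TTGACT and the DRE core CCGAC. The G-box was found in 8.70% of member promoters, 11.8% of those of other eligible genes and 7.68% of all. The W-box was found in 44.9% of member promoters, 39.8% of those of other eligible genes and 32.4% of all, and the DRE core in 13.0% of member promoters, 15.5% of those of other eligible genes and 15.0% of all.

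The glutaredoxin-type genes AT4G15660, AT4G15680 and AT4G15700, annotated in the thioredoxin superfamily, formed a run of 3 on the same strand. AT4G15680 was the most abundant, with 60.3 RPKM in swi3b +/- and 29.9 RPKM in Col-0 (2.01-fold). AT4G15660 and AT4G15700 rose 2.83-fold and 2.37-fold per the authors' deposited table. Neighbours in this run share 92.2% and 93.1% of their residues and identical stretches of 50 bases. The other run of 3 held unrelated genes: CDF1 (AT5G62430), a repressor of flowering genes that peaks in the morning, AT5G62440, and MYB96 (AT5G62470), a regulator of drought responses and wax. CDF1 had the largest rise of all 71 members, with 11.1 RPKM in swi3b +/- and 2.31 RPKM in Col-0 (4.80-fold, q = 1.8e-13 in the authors' deposited table). AT5G62440 and MYB96 rose 1.93-fold and 2.04-fold.

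Jasmonate genes other than KAT5 were found in 2 runs. AOC2 and AOC3 encode allene oxide cyclases of jasmonate synthesis and stand side by side. AOC3 had 7.41 RPKM in swi3b +/- and 2.27 RPKM in Col-0 (3.26-fold), and the more abundant AOC2 had 98.2 RPKM in swi3b +/- and 57.9 RPKM in Col-0 (1.70-fold). JAZ5, a repressor of jasmonate responses, rose 3.01-fold and its neighbour AT1G17360 1.74-fold per the authors' deposited table. Of 14 genes of jasmonate synthesis, 6 were higher in swi3b +/-, 1 in nrpe1 and 1 in idn2-1, with none lower. This list was written after the members had been seen and holds 3 of them, which favours swi3b +/-. Over all features tested, 1.87% were higher in swi3b +/-, 1.04% in nrpe1 and 1.24% in idn2-1. Of 12 JAZ genes, 2 were higher in swi3b +/-, 2 in nrpe1 and none in idn2-1, with none lower. JAZ5 is the only JAZ gene among the members.

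The remaining rises were of mixed function. AT4G27652 and AT4G27657, small genes with 85.5% shared residues, rose 3.47-fold and 2.67-fold per the authors' deposited table. NUDT21, a nudix hydrolase gene, rose 3.37-fold, and the MAP kinase kinase gene MKK9, with 2 coding genes between them, rose 1.88-fold. AT1G32920 had the highest level of all members in swi3b +/-, though not in Col-0, with 284 RPKM in swi3b +/- and 104 RPKM in Col-0 (2.72-fold), and GBSS1, the granule-bound starch synthase gene with 1 coding gene between them, rose 2.18-fold. The ankyrin repeat genes AT5G54710 and AT5G54720 rose 2.20-fold and 2.11-fold, and the GDSL lipase genes AT1G28600 and AT1G28610, with 75.7% shared residues, 1.67-fold and 2.02-fold per the authors' deposited table. The smallest rises of a pair were those of BIP2, an endoplasmic reticulum chaperone, and AT5G42050, both 1.57-fold.

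Other pairs joined a small rise to a larger one, or genes of unrelated kinds. AT4G20820 and AT4G20830, which encode berberine bridge enzyme-like oxidases, share 43.2% of the residues of the shorter protein. AT4G20820 had 4.98 RPKM in swi3b +/- and 1.49 RPKM in Col-0 (3.35-fold), and AT4G20830 had 33.2 RPKM in swi3b +/- and 17.6 RPKM in Col-0 (1.89-fold). The flavonoid glucosyltransferase gene UGT73B2 rose 1.93-fold. AT4G34150, a gene for a calcium-dependent lipid-binding protein with 3 coding genes between it and UGT73B2, rose 2.51-fold. RDUF2, a RING-type ubiquitin ligase gene, and the oxygenase gene AT5G59540 rose 2.02-fold and 1.66-fold. CNI1, a ubiquitin ligase gene of the carbon and nitrogen response, had the largest q-value of all members, 0.0492 in the authors' deposited table, at 5.97 RPKM in swi3b +/- and 3.11 RPKM in Col-0. AT5G27440, with 1 coding gene between it and CNI1, rose 2.23-fold. ECHID, a gene of phylloquinone synthesis, and AT1G60590 rose 1.62-fold and 2.07-fold. The VQ motif gene AT3G56880 and its neighbour AT3G56870 rose 2.10-fold and 1.83-fold, and AT3G62422 and AT3G62450 2.03-fold and 2.35-fold. In all, 19 of the 71 members had a q-value of at least 0.01, and 8 stayed below 5 RPKM in both genotypes.

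The 8 lower members formed 4 pairs. AT4G36850, a PQ-loop membrane protein gene, had 10.99 RPKM in swi3b +/- and 22.4 RPKM in Col-0, and AT4G36860, a LIM domain gene, 3.68 RPKM in swi3b +/- and 6.55 RPKM in Col-0. PMR6, a pectate lyase-like gene needed for susceptibility to powdery mildew, had 97.6 RPKM in swi3b +/- and 165 RPKM in Col-0, and the zinc finger gene AT3G54880 62.5 RPKM in swi3b +/- and 113 RPKM in Col-0. The other pairs are each listed under 1 shared locus in the authors' table: XYL4, a beta-xylosidase gene, with the non-coding gene AT5G64572 on the opposite strand, and AT2G30600 with AT2G30615 on the opposite strand. The sources used here do not say whether the libraries kept strand. In the annotation AT5G64572 lies within the span of XYL4, so without strand their reads cannot be told apart, while AT2G30600 and AT2G30615 overlap only at their ends. In the swi3b +/- table AT2G30600 had 78.7 RPKM in swi3b +/- and 154 RPKM in Col-0. There AT2G30615 had 93.1 RPKM in swi3b +/- and 148 RPKM in Col-0. In the idn2-1 table the listed values of this pair moved to opposite sides. AT2G30600 had 48.3 RPKM in idn2-1 and 172 RPKM in Col-0, while AT2G30615 had 319 RPKM in idn2-1 and 92.5 RPKM in Col-0. The Col-0 values of the pair thus also differ between the tables, and how reads were divided within the shared locus was not tested. XYL4 is listed in neither of the other tables. AT5G64572 had 162 RPKM in nrpe1 and 94.9 RPKM in Col-0, and it is listed at 0 in idn2-1 against 80.9 RPKM in Col-0.

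What neighbours had in common beyond direction was examined with measures the rule did not use. Of 42 same-side pairs of protein-coding genes, 22 (52.4%) had similar proteins, with identical residues over at least 30% of the shorter protein. Among all 60792 annotated coding-gene pairs with starts within 10 kb and spans of 300 to 6000 bp, 6.68% were similar in this sense. Unlike the same-side pairs, these annotated pairs had no limit on level and were not restricted to listed genes. The 22 pairs came from 13 runs, and 9 of the pairs lie in the TIR run alone. Strand followed the same pattern: 32 of 43 same-side pairs with both genes in the reference (74.4%) lay on the same strand, 5 (11.6%) were divergent and 6 (14.0%) convergent. Over the annotated pairs these shares were 52.5%, 21.7% and 25.8%. Of the similar pairs, 21 of 22 lay on the same strand, as did 90.9% of similar pairs in the annotation. These 21 make up most of the 32 same-strand pairs, so strand and similarity are not separate features here. Pairs that share a gene are not independent, and no test was made of these shares.

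Similar copies can also share reads. The longest stretch identical between the transcripts of a similar pair had a median of 34 bases, with a range of 17 to 189, and 7 of 22 pairs shared at least 50. No read length is given in the labels, and the part of shared reads in the rises was not tested. The similar pairs were not closer in log2 change than the rest: the median difference within a pair was 0.38 for similar pairs and 0.29 for the other same-side pairs, values given as a description.

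Distances between the starts of the listed loci, leaving out the 2 shared loci, ranged from 1436 to 9898 bp with a median of 5360 bp. In 18 of 41 such pairs no annotated coding gene started between the partners. Altogether 28 other coding genes started between members of a run, and none of them is listed in swi3b +/-; for these no value was used here. At the limits of the rule, CDF1 and MYB96 were just inside at 9898 bp, and AT1G72900 and AT1G72940 just outside at 10043 bp, though each is a member through other partners. AT1G60590 had the lowest Col-0 level inside (1.397 RPKM) and AT4G14370 was just outside (0.953 RPKM). By locus length, BCAT4 was the longest inside (5836 bp), AT3G15350 just outside (6632 bp), and AT3G53650 the shortest inside (417 bp). The listed BCAT4 locus is wider than the annotated gene. It begins 805 bp after the AT3G19680 locus, while the annotated genes lie 4648 bp apart.

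**Figure D3:**
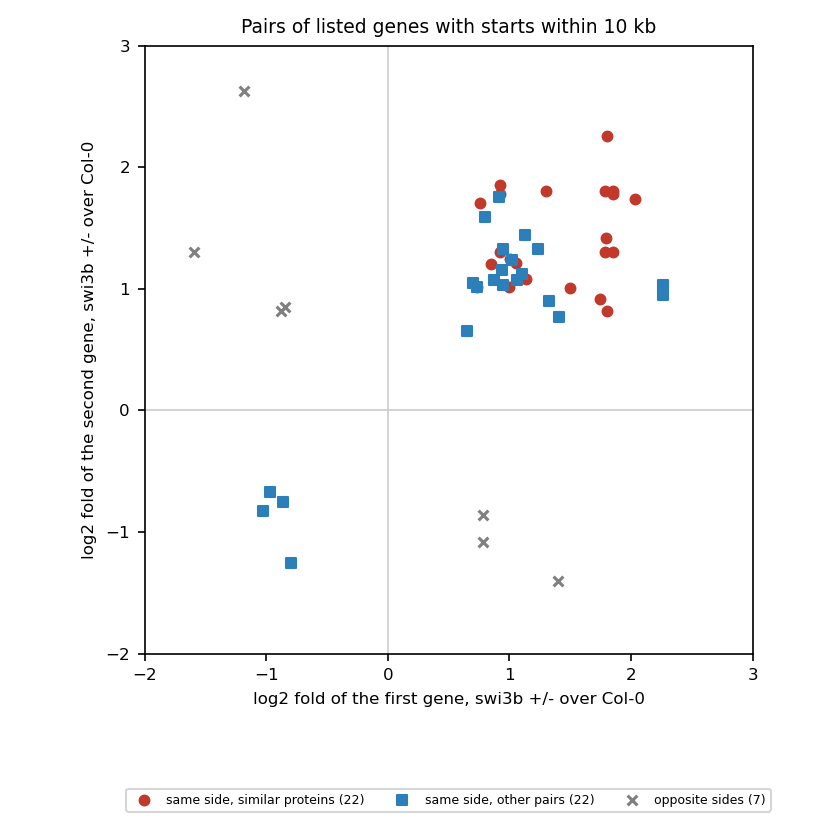
Log2 fold (swi3b +/- over Col-0) of the second gene against that of the first, in chromosome order, for the 51 pairs of eligible genes with starts within 10 kb. Circles are the 22 same-side pairs with similar proteins, squares the 22 other same-side pairs and crosses the 7 pairs that moved to opposite sides; none of the similar pairs is among the crosses.

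A further 7 close pairs of eligible genes moved to opposite sides and are no members. Their proteins shared at most 5.96% of the residues of the shorter one. The widest gap was between CYP707A3 (AT5G45340), an abscisic acid hydroxylase gene with 23.7 RPKM in swi3b +/- and 3.83 RPKM in Col-0, and AT5G45310, with 1.398 RPKM in swi3b +/- and 3.17 RPKM in Col-0. SIP2 (AT3G57520) had 169 RPKM in swi3b +/- and 511 RPKM in Col-0, while the calcium-dependent kinase gene CPK32 (AT3G57530) next to it had 58.2 RPKM in swi3b +/- and 23.6 RPKM in Col-0.

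Of all close pairs of eligible genes in swi3b +/-, 44 of 51 (86.3%) were on the same side, 40 of them both higher. Among pairs 10 to 20 kb apart this held for 25 of 30 (83.3%), and among pairs more than 1000 kb apart on the same chromosome for 65.9% of 30741. Since 444 of 567 eligible genes were higher, most pairs at any distance were on the same side. The same limits in the nrpe1 table gave 16 close pairs among 409 eligible genes, of which 14 (87.5%) were on the same side, against 50.6% of pairs more than 1000 kb apart. In the table for idn2-1, 39 of 60 close pairs (65.0%) were on the same side, against 51.6% of pairs more than 1000 kb apart. These pairs include similar copies and shared loci (2, 1 and 2 same-side pairs on 1 locus in swi3b +/-, nrpe1 and idn2-1), and the shares were not tested.

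**Figure D4:**
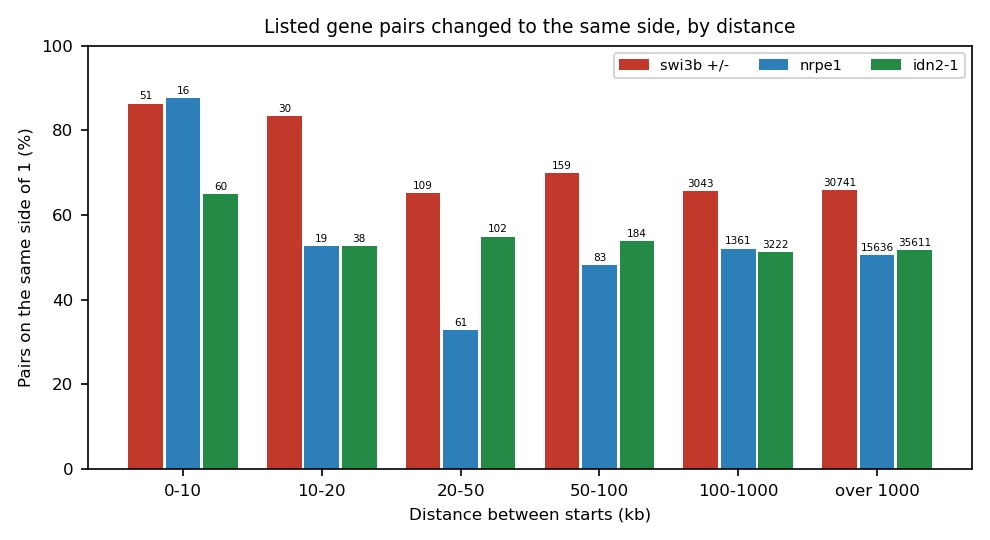
Share of pairs of listed genes on the same chromosome that changed to the same side (%), by the distance between their starts in kb, in the swi3b +/-, nrpe1 and idn2-1 tables under the same limits of level and span. The number over a bar is its count of pairs; the bars for 0 to 10 kb stand at 86.3%, 87.5% and 65.0%.

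In the table for nrpe1, 25 of the 71 members were listed, 23 higher and 2 lower. Over the 27012 features tested there, 1.88% were listed, 1.04% as higher and 0.848% as lower. In the table for idn2-1, 21 were listed, 19 higher and 2 lower. Over the 27755 features tested there, 3.18% were listed, 1.24% as higher and 1.95% as lower. Of the other 496 eligible genes, 127 were listed in nrpe1 and 127 in idn2-1, so genes listed in swi3b +/- were often listed in these tables whether or not they had a close neighbour. These comparisons share Col-0 with swi3b +/-, and nothing particular to the members is read from the counts. A gene not listed cannot be called unchanged, and 36 members were listed in neither table.

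Both genes of a pair were listed in nrpe1 for 5 pairs, all higher. LSU3 had 35.8 RPKM in nrpe1 and 10.3 RPKM in Col-0 (3.49-fold), and LSU1 had 17.7 RPKM in nrpe1 and 4.98 RPKM in Col-0 (3.55-fold). SNC1 and AT4G16880 rose 1.58-fold and 2.26-fold in nrpe1, and AKN2 and CYP79B2 1.59-fold and 1.73-fold per the authors' deposited table. GBSS1 and AT1G32920 rose 1.95-fold and 1.88-fold, and the histone gene AT3G53650 and the PHD finger gene AT3G53680 2.44-fold and 1.84-fold per the authors' deposited table for nrpe1.

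In idn2-1 both genes were listed for 6 pairs, and in 5 of these both were higher. The 3 glutaredoxin-type genes were all higher: AT4G15680 had 94.3 RPKM in idn2-1 and 25.6 RPKM in Col-0 (3.69-fold), and AT4G15660 and AT4G15700 rose 3.78-fold and 2.50-fold per the authors' deposited table. AT1G65490 had 171 RPKM in idn2-1 and 29.3 RPKM in Col-0 (5.83-fold), and AT1G65486 had 11.4 RPKM in idn2-1 and 2.04 RPKM in Col-0 (5.61-fold). TIR and AT1G72940 rose 2.24-fold and 2.17-fold, and the dehydrogenase-like genes AT2G29300 and AT2G29340 2.26-fold and 1.97-fold per the authors' deposited table for idn2-1. No glucosinolate or LSU member is among the 21. The low-sulphur member SDI1 is among them, with 5.08 RPKM in idn2-1 and 1.64 RPKM in Col-0 (3.10-fold).

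**Figure D5:**
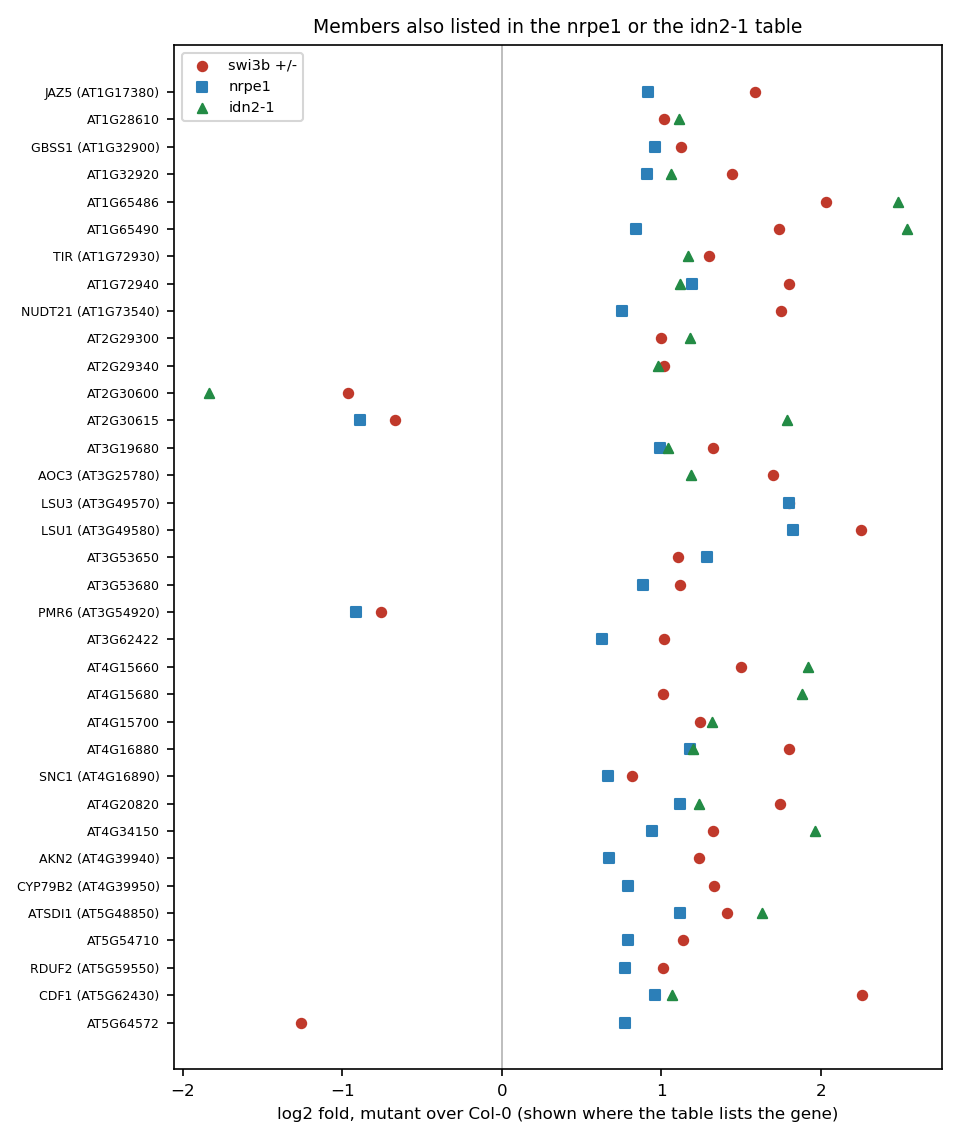
Log2 fold, mutant over Col-0, of the 35 members that the nrpe1 or the idn2-1 table also lists, with a point for each table that lists the gene (circle swi3b +/-, square nrpe1, triangle idn2-1); the circle of LSU3 lies under its square. AT5G64572 has no idn2-1 point because it is listed there at 0; AT2G30615 and AT5G64572 lie on both sides of 0.

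Other known families with neighbouring copies were also counted, and none of those given here holds a member. The rule leaves out the XTH gene XTH18 (AT4G30280). Of 15 ERF and DREB genes, 7 were higher in swi3b +/- and 2 in nrpe1, 2 were lower in idn2-1, and none was a member. Of 13 XTH cell wall genes, 3 were higher and 1 lower in swi3b +/-, 3 were higher and 1 lower in nrpe1, and 5 were higher in idn2-1. Of 10 calmodulin-like genes, 4 were higher in swi3b +/-, 3 in nrpe1 and 3 in idn2-1. Of 10 tau glutathione transferase genes, 1 was higher in swi3b +/-, 1 in nrpe1 and none in idn2-1, and of 5 wall-associated kinase genes none was listed in any table. The shares over all features tested were 1.87% higher and 0.556% lower in swi3b +/-, 1.04% and 0.848% in nrpe1, and 1.24% and 1.95% in idn2-1. The touch-induced genes TCH2, TCH4 and TCH3 of these lists rose 4.04-fold, 4.11-fold and 1.66-fold per the authors' deposited table for swi3b +/-. TCH2, TCH4 and TCH3 were also listed as higher in both nrpe1 and idn2-1. The part of touch or handling of the plants in the rises of the members was not tested.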

How the data were processed

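Per the labels, total RNA of 12 seedling samples was depleted of ribosomal RNA and sequenced. TopHat and Cufflinks on TAIR10 are named in the submitters' processing notes, with no version. Per the file headers, the 3 tables deposited by the authors give RPKM values pooled per genotype, log2 fold changes, p-values and q-values; the sources used here do not name the test. Folds here are ratios of the deposited RPKM values, which match the listed log2 values to within 1.24e-05. No pseudocount was used, no new test of a gene was made, and 0 columns of per-sample values were left unmapped.

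The members and lists were chosen with earlier results of these data known. The glucosinolate, low-sulphur and jasmonate synthesis lists were written after the members had been seen. How many features were tested was worked out from each q-value, its p-value and its rank (Benjamini-Hochberg). Loci are given from 1, on TAIR10; strands, names and sequences came from RefSeq's TAIR10.1, in which all 70 matched members overlapped their gene. Proteins translated from it were aligned locally (Biopython 1.88, BLOSUM62, gap open 11, extend 1), and identical residues were divided by the length of the shorter protein. The scripts ran in Python 3.11.15 with pandas 2.3.3 and were tested on simulated data.

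Named are all genes of runs of 3 or more; the 8 higher and at most 6 lower pairs (4 exist) with the largest smaller change among genes of at least 5 RPKM; pairs with both genes listed in nrpe1 or idn2-1, at most 10 a table; members of the lists; the 8 pairs with the most similar proteins; and genes at the limits. Other genes were chosen after their values were seen.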

Additional observations from a re-analysis of the deposited data

How the results depend on the processing

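The values rest on 1 pooled value per genotype, so no replicate could be left out. No paired analysis was possible because the tables hold no values per replicate. Of 47 counts under other limits, 25 stayed within 1.5 times the reported count. With starts within 5 kb there were 31 members, 19 same-side pairs, 13 members listed in nrpe1, 10 in idn2-1, 14 same-strand pairs, 1 divergent pair and 13 pairs with similar proteins. Within 20 kb there were 69 same-side pairs. With at least 5 RPKM in Col-0 there were 33 members in 17 pairs, 9 listed in nrpe1 and 10 in idn2-1. At q below 0.01 there were 40 members in 26 pairs, 16 of them listed in nrpe1. With at least a 2-fold change in both genes there were 29 members in 19 pairs, 13 listed in nrpe1 and 9 in idn2-1. Without the pairs of similar proteins, an alternative chosen after seeing the data, 41 members in 22 pairs were left. Of these, 17 were listed in nrpe1 and 8 in idn2-1, against 25 and 21 of the 71 members. The smaller counts under the stricter limits of distance, level, q-value and fold come from subsets of the same genes. Among these settings, leaving out overlapping loci gave 67 members and a 50% limit on identity gave 20 similar pairs. Depth is unknown, so precision cannot be given.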
